A study of Mus musculus with 32 samples.

Results

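Myc and the chromatin that lies far downstream of it were examined by position. All HA-Ikaros, CHD4 and H3K27ac peaks were taken that overlapped chr15:61885000-63890000 of the mouse genome build mm10, from 100 kb before the Myc start at position 61985391 to about 1.9 Mb after it. This 2.01 Mb window held 647 of the 338060 peaks in the 24 lists. Overlapping peaks of 1 target were merged over its 8 lists into regions, which gave 16 Ikaros, 26 CHD4 and 72 H3K27ac regions in the window, 114 of 78523 in all.

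The libraries came from the mouse pre-B line B3. A retrovirus had brought in Ikaros with an HA tag and the ERt2 domain of a mutant estrogen receptor, so that the fusion enters the nucleus when 4-hydroxytamoxifen (4-OHT) binds it. All 4 groups carried this construct. Cells received no 4-OHT (0 h) or 500 nM 4-OHT for 30 min, 1 h or 2 h, and chromatin immunoprecipitation was carried out with anti-HA beads or antibodies to CHD4 or H3K27ac. Each target and time had 2 replicates, and nothing in the labels says that they were separate cultures, so p-values may measure technical spread only. The construct is expressed from a retrovirus in 1 cell line, and the HA beads detect the tagged protein, not the Ikaros of the cell itself.

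MYC is a transcription factor that pairs with MAX and drives growth and division, and pre-B cells reduce it as they stop cycling. In blood cells Myc is controlled by enhancers that lie far downstream of the gene, past the long non-coding RNA Pvt1. Ikaros is a zinc finger factor of lymphocytes that binds GGGA-type sequences and associates with NuRD, a complex that contains the remodeller CHD4 and histone deacetylases. H3K27ac, acetylated lysine of histone H3, marks active promoters and enhancers.

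The identity of the cells was checked through H3K27ac peaks within 1 kb of gene starts. Of 12 B lineage genes 11 had a peak in all 8 libraries, and Rag1 had one in 7. Vpreb1 and Igll1 had the same lowest and highest fold, 19.1 and 57.9, so they may rest on 1 peak. None of 6 T cell genes had a peak in any library, and of 6 myeloid and erythroid genes only Hbb-bs had one, at folds of 4.29 to 6.15. The lists held 5373 to 14874 Ikaros, 2488 to 9593 CHD4 and 21468 to 33664 H3K27ac peaks. Mean coverage recovered from the deposited statistics was 1.98 to 3.59 fragments per base for Ikaros and 3.75 to 4.34 for H3K27ac, and it could not be recovered for CHD4.

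The DNA under the Ikaros peaks is shown for 6 regions, chosen because they were gained after 4-OHT (the first 3), held the highest Ikaros peaks of the window, or were among those called in every library. Each line gives 200 bases of the plus strand of GRCm38 around the summit of the highest peak of the region, named by the distance of the region's midpoint from the Myc start. Capitals mark the words of the Ikaros core, GGAA or GGGA on the plus strand and their complements TTCC or TCCC on the other, which may overlap each other.
1.6 kb upstream, chr15:61984258-61984457: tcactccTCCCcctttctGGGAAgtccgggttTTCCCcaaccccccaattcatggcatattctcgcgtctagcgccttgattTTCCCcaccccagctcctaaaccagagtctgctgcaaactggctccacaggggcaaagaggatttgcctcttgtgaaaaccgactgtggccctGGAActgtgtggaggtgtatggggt
1426 kb downstream, chr15:63411108-63411307: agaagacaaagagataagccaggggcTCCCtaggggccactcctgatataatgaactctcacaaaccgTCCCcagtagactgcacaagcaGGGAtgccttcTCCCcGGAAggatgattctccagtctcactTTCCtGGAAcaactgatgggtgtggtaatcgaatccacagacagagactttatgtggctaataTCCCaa
1632 kb downstream, chr15:63617045-63617244: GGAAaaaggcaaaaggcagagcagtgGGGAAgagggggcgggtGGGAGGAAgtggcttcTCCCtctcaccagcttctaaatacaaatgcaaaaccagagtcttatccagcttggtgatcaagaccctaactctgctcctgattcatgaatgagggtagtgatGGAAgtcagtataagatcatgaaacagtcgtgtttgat
1285.5 kb downstream, chr15:63270486-63270685: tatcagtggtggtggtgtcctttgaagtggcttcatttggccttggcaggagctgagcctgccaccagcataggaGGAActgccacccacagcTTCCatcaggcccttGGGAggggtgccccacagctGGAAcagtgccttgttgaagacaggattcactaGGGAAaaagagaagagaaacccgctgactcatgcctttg
1663 kb downstream, chr15:63648398-63648597: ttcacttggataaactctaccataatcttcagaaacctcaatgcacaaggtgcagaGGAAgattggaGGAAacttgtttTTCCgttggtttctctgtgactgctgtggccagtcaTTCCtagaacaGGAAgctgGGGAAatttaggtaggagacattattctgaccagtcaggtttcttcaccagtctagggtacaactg
1673 kb downstream, chr15:63657829-63658028: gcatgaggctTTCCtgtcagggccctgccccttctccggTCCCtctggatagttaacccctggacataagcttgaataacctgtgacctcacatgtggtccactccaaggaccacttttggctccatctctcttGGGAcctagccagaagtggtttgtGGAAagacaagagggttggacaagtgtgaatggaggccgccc

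Over the 16 Ikaros regions of the window, each stretch held 4 to 10 matches to these short words. The longer word TGGGAA, or its complement TTCCCA, lay in 5 of the 16 windows (31.2%). Among all 23856 Ikaros regions 23.2% held it, and among the 2305 called in all 8 lists 29.4% did. The median number of short words was 6.5 in the Myc window, 6 over all regions and 7 over those called in every list, so the letters at Myc were near those of Ikaros regions at large. The stretch 1673 kb downstream held 4. Most of these sites lie in introns of Gm41335, a long non-coding RNA gene on the minus strand at chr15:63176838-63718289, and the site 1.6 kb upstream lies before the Myc start.

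The peaks were not spread evenly over the window. No list of any target had a peak more than 10 kb upstream of the Myc start. Within 10 kb of the start lay 3 Ikaros, 2 CHD4 and 2 H3K27ac regions, and from 10 to 500 kb downstream 2, 2 and 4. Over 1.5 Mb downstream lay 8 of 16 Ikaros, 17 of 26 CHD4 and 54 of 72 H3K27ac regions. Of the 79 regions there, 68 had their midpoint in a Gm41335 intron and 9 in the neighbouring non-coding gene 4930449C09Rik. Between them, the 500 kb to 1.5 Mb stretch held 3 Ikaros, 5 CHD4 and 12 H3K27ac regions.

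**Figure D1:**
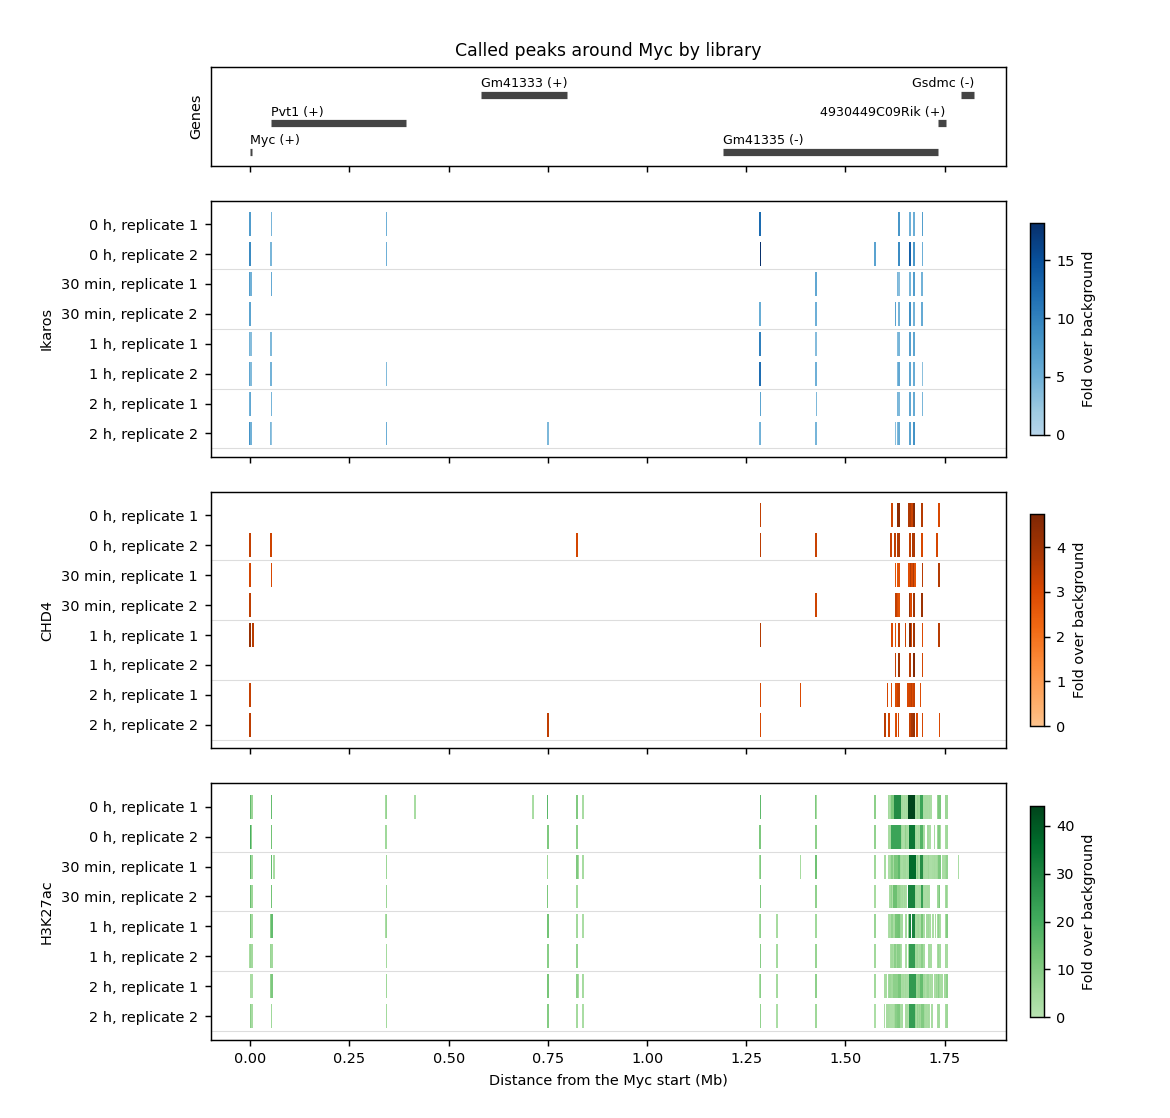
Called peaks in the Myc window by library. The x axis is the distance from the Myc start in Mb, each row is 1 library, bars are called peaks drawn at a minimum width so that they can be seen, and darker bars have a higher fold over background. The upper panel shows gene bodies with their strand. Peaks of all 3 targets sit at Myc and again over 1.5 Mb downstream, where 54 of the 72 H3K27ac regions lie.

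Of the 29 genes with a start in the window, 4 are protein coding, namely Myc and the gasdermin genes Gsdmc, Gsdmc2 and Gsdmc3. H3K27ac peaks lay within 1 kb of the start of 8 genes, in all 8 libraries for 7 of them. Ikaros peaks lay at 4 starts and CHD4 peaks at 5. Neighbouring starts can share a peak. For H3K27ac this held for Myc and Gm37947, for Pvt1 and Gm27913, and for 4930449C09Rik and Gm41335. For CHD4 it held for the first 2 of these pairs. The gasdermin genes, which encode proteins that form membrane pores, had no peak of any target at their starts. At Myc itself, peaks of Ikaros and H3K27ac were called in all 8 libraries and of CHD4 in 6.

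H3K27ac at the Myc start covered a region at chr15:61983552-61988354. Its fold over background, the highest peak's summit against the local background that the peak caller estimated, was 15.7 and 19.7 at 0 h, 16.3 and 14.5 at 30 min, 12.5 and 6.49 at 1 h, and 9.14 and 8.82 at 2 h. Both libraries at 2 h and both at 1 h lay below both at 0 h, while those at 30 min overlapped them. The mean was 17.7 at 0 h and 8.98 at 2 h, a ratio of 0.508. Folds were lower over the genome as well, since the median log2 fold over the 14716 H3K27ac regions called in every library was 3.65 and 3.40 at 0 h and 3.09 and 3.04 at 2 h. All log2 differences below were therefore taken after libraries were set to the same median, unless called unscaled.

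After that scaling the Myc start was lower by 0.51 on the log2 scale at 2 h (SE 0.29, limma, adjusted p = 0.417), and the unscaled log2 change was -0.97 (limma, adjusted p = 0.173). Neither passed the threshold of 0.05. The scaled change was -0.22 without replicate 2 at 0 h and -0.80 without replicate 1 at 0 h. The summit can also be read as a number of fragments, recovered from the deposited fold and p-value, and divided by the mean coverage of the library. It stood at 116 and 112 fragments at 0 h and 50 and 45 at 2 h, which is 27.3 and 26.0 times the mean coverage at 0 h and 12.6 and 11.2 times at 2 h. On this measure the Myc start fell by 0.61 at 1 h (SE 0.15, limma, adjusted p = 0.00477) and by 0.69 at 2 h (SE 0.15, limma, adjusted p = 0.00129) on the log2 scale. The call at the Myc start thus differed between these measures, while the direction did not.

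A second H3K27ac region, 4.2 kb downstream with its midpoint in a coding exon of Myc (chr15:61988593-61990628), had folds of 5.39 and 6.84 at 0 h, 4.53 and 5.07 at 30 min, 3.92 and 4.16 at 1 h, and 4.75 and 3.29 at 2 h. Of all regions called in every library 13.9% lay below both 0 h libraries at 30 min, 32.8% at 1 h and 54.3% at 2 h. Here all 6 later libraries lay below both at 0 h. The scaled log2 changes were -0.37 at 30 min, -0.29 at 1 h and -0.16 at 2 h (SE 0.34 for each), and none passed (limma, adjusted p = 0.772, 0.75 and 0.866), nor did those in fragments over coverage, where the lowest adjusted p was 0.0994 (limma).

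The highest H3K27ac peaks of the window were not at Myc but far downstream. The region 1668 kb downstream, chr15:63643591-63662684, had folds of 44.2 and 34.1 at 0 h, 36.6 and 30.7 at 30 min, 30.6 and 24.3 at 1 h, and 24.7 and 23.8 at 2 h. It was the highest of the window in every library. Its best peak was 127th of 25095 in replicate 1 at 0 h and 785th of 27214 in replicate 1 at 1 h, the lowest of its places, and it stayed at percentiles 97.1 to 99.5 of each list. Its mean fold at 2 h was 0.619 of that at 0 h. Its scaled log2 change at 2 h was -0.22 (SE 0.24, limma, adjusted p = 0.712). In summit fragments over coverage the log2 change was -0.34 at 1 h (limma, adjusted p = 0.0396) and -0.36 at 2 h (limma, adjusted p = 0.025). The bases called in the region, 18268 to 19031, varied little between libraries.

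The region 1627 kb downstream, chr15:63598265-63626780, had the lowest ratio of 2 h to 0 h among the 21 regions of the window called in every library. Its folds were 28.4 and 22.0 at 0 h, 15.7 and 13.7 at 30 min, 12.9 and 9.05 at 1 h, and 11.5 and 10.8 at 2 h. All 6 libraries with 4-OHT lay below both at 0 h. Of all regions 13.9% lay below at 30 min, 32.8% at 1 h and 54.3% at 2 h. At this region the mean at 2 h was 0.442 of that at 0 h. The scaled log2 change was -0.80 at 30 min (SE 0.25, limma, adjusted p = 0.319), -0.92 at 1 h (SE 0.25, limma, adjusted p = 0.134) and -0.71 at 2 h (SE 0.25, limma, adjusted p = 0.182). In summit fragments over coverage it fell from 40.9 and 40.7 at 0 h to 21.9 and 19.5 at 1 h and 19.7 and 23.1 at 2 h, with log2 changes of -0.73 (limma, adjusted p = 0.000317) and -0.46 (limma, adjusted p = 0.0131).

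The region 1694 kb downstream, chr15:63673529-63684827, stood highest at 30 min. Its folds were 22.2 and 18.0 at 0 h, 27.7 and 23.3 at 30 min, 12.1 and 8.84 at 1 h, and 14.9 and 10.2 at 2 h. Both 30 min libraries lay above both at 0 h in fold, though not in summit fragments over coverage, where they were 42.65 and 32.3 against 45.1 and 42.8. The scaled log2 change of the fold at 2 h was -0.24 (limma, adjusted p = 0.717) and that of the fragments -0.41 (limma, adjusted p = 0.0196). Without replicate 2 at 2 h the change of the fold was 0.017, and without replicate 1 at 2 h it was -0.49.

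Of the lower H3K27ac peaks between and beside these tall ones, some stood higher at 2 h and some lower, by fold as deposited. At the regions 1652, 1655 and 1737 kb downstream both folds at 2 h lay below both at 0 h. The mean at 2 h was 0.7, 0.786 and 0.629 of that at 0 h. Their scaled log2 changes were -0.06, 0.11 and -0.29, and none passed (limma, adjusted p = 0.956, 0.895 and 0.715). Their scaled changes in fragments over coverage were -0.20, 0.13 and -0.02, and none passed (limma, adjusted p = 0.579, 0.759 and 0.948). After scaling the region 1655 kb downstream was thus not lower. The region 1686 kb downstream, chr15:63669671-63672777, had folds of 5.14 and 4.09 at 0 h, 6.43 and 4.17 at 30 min, 4.79 and 4.07 at 1 h, and 8.00 and 6.53 at 2 h. Both libraries at 2 h lay above both at 0 h, and the scaled log2 change was 1.12 (SE 0.27, limma, adjusted p = 0.0771), or 0.66 unscaled (limma, adjusted p = 0.3). In summit fragments over coverage, 6.35 and 5.58 at 0 h against 10.6 and 8.21 at 2 h, the region rose by 1.12 on the log2 scale relative to the median (limma, adjusted p = 0.000406). The regions 1681 and 1709 kb downstream also had folds at 2 h above both at 0 h, the first by as little as 6.58 against 6.57. In fragments their scaled log2 changes were 0.75 (limma, adjusted p = 0.0129) and 0.73 (limma, adjusted p = 0.0191). Unscaled, their fold changed by only 0.23 and 0.31, and their fragments over coverage at 2 h overlapped those at 0 h. When peaks within 1 kb were stitched, these 3 regions and that 1627 kb downstream fell in a joined region with a taller peak, which was at -0.21.

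**Figure D2:**
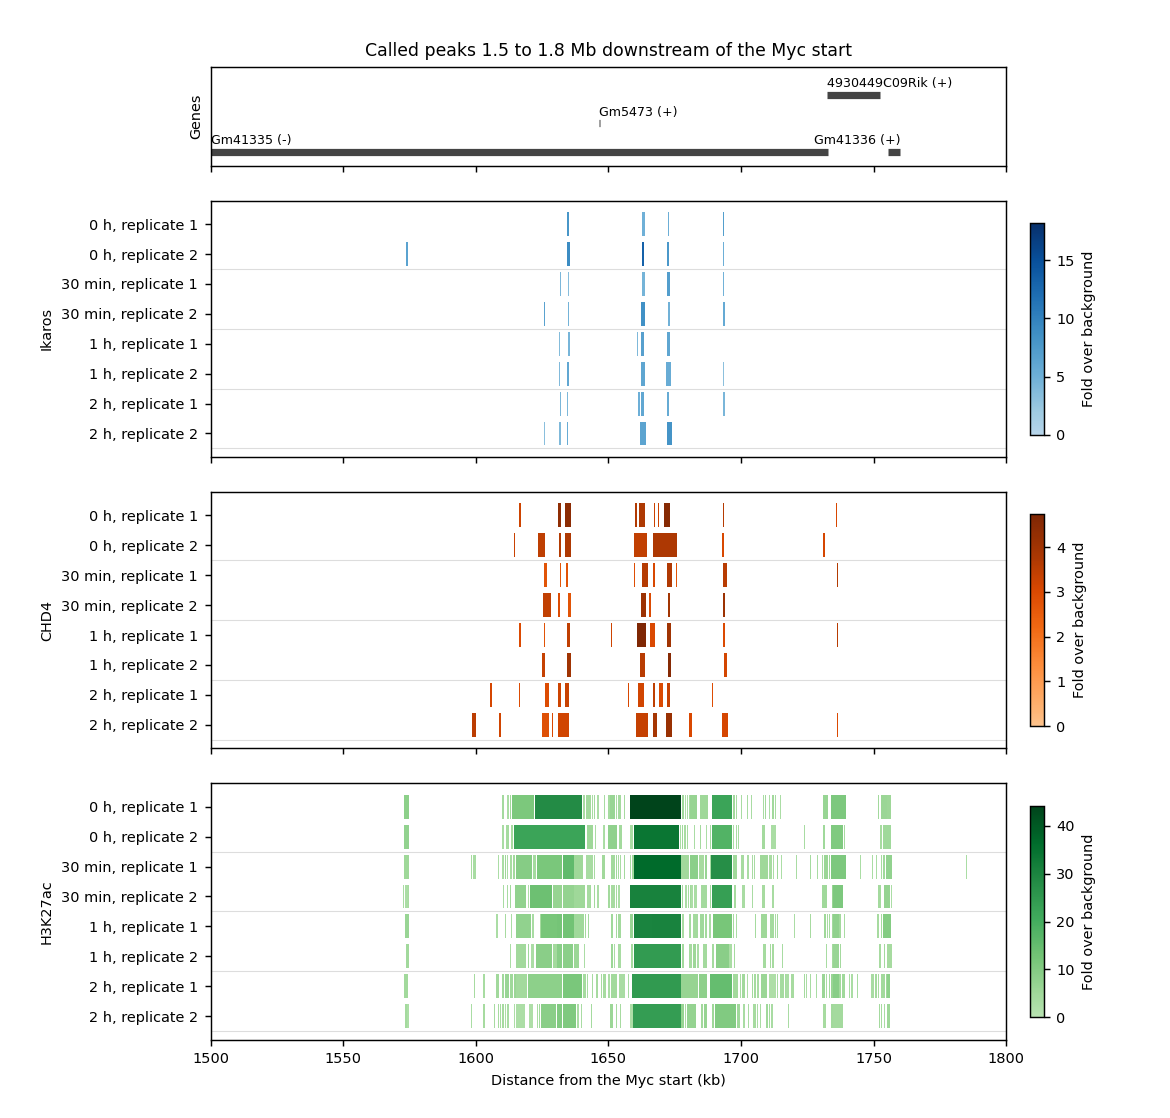
Called peaks in the far downstream part of the window. The x axis is the distance from the Myc start in kb, each row is 1 library, bars are called peaks and darker bars have a higher fold over background. H3K27ac peaks form broad blocks around 1627, 1668 and 1694 kb in every library, while Ikaros and CHD4 peaks recur at a few places within it, near 1635, 1663, 1673 and 1694 kb.

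Of the 72 H3K27ac regions of the window 21 (29.2%) were called in all 8 libraries, against 37.4% of all, and none of the 21 passed the limma threshold at any time. At 30 min 0.0068% of all 14716 tested regions passed, at 1 h 0.231% and at 2 h 0.408%. At an unadjusted p under 0.05 the window had 2, 3 and 5 of the 21, against 9.47, 13.7 and 15.9% of all 14716. The scaled log2 change was below 0 at 16, 13 and 12 of the 21, with medians of -0.09, -0.14 and -0.10 against 0.02, 0.06 and 0.05 over all regions. Of the 60 regions that passed at 2 h in the whole genome 33 were lower, but without scaling 421 of 426 were, and none of either set lay in the window. The 60 fell to 0 when the fit held the libraries at 0 h and 2 h only or left out any 1 library of those times, and to between 22 and 32 without a library at 30 min or 1 h. The 34 at 1 h fell to 0 with the libraries at 0 h and 1 h only or with any 1 library left out.

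Counted by fold as deposited, both 2 h libraries lay below both 0 h libraries at 12 of the 21 regions, where 54.3% of all regions did so. At 1 h they lay below at 11 of the 21, against 32.8% of all, and at 30 min at 5, against 13.9%. At 30 min 2 of the 21 lay above, against 16% of all. The libraries at 2 h lay above both at 0 h at 3 of the 21, those 1681, 1686 and 1709 kb downstream, where 5.31% of all regions did. The share that was lower at Myc at 2 h was thus near that of the genome.

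In summit fragments over coverage, 7 of the 21 passed at 2 h, where 23.5% of 14713 regions did, 4 of them lower (the Myc start and 1627, 1668 and 1694 kb) and 3 higher (1681, 1686 and 1709 kb). At 1 h 4 of 21 passed, the same 4 lower regions, against 19.1% of all. At 30 min 1 passed, the region 1574 kb downstream with a log2 change of -0.76 (limma, adjusted p = 0.0307), against 6.08% of all. The counts at 30 min and 1 h were near the shares over the genome. The 4 lower regions were those with the highest mean fold at 0 h among the 21.

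**Figure D3:**
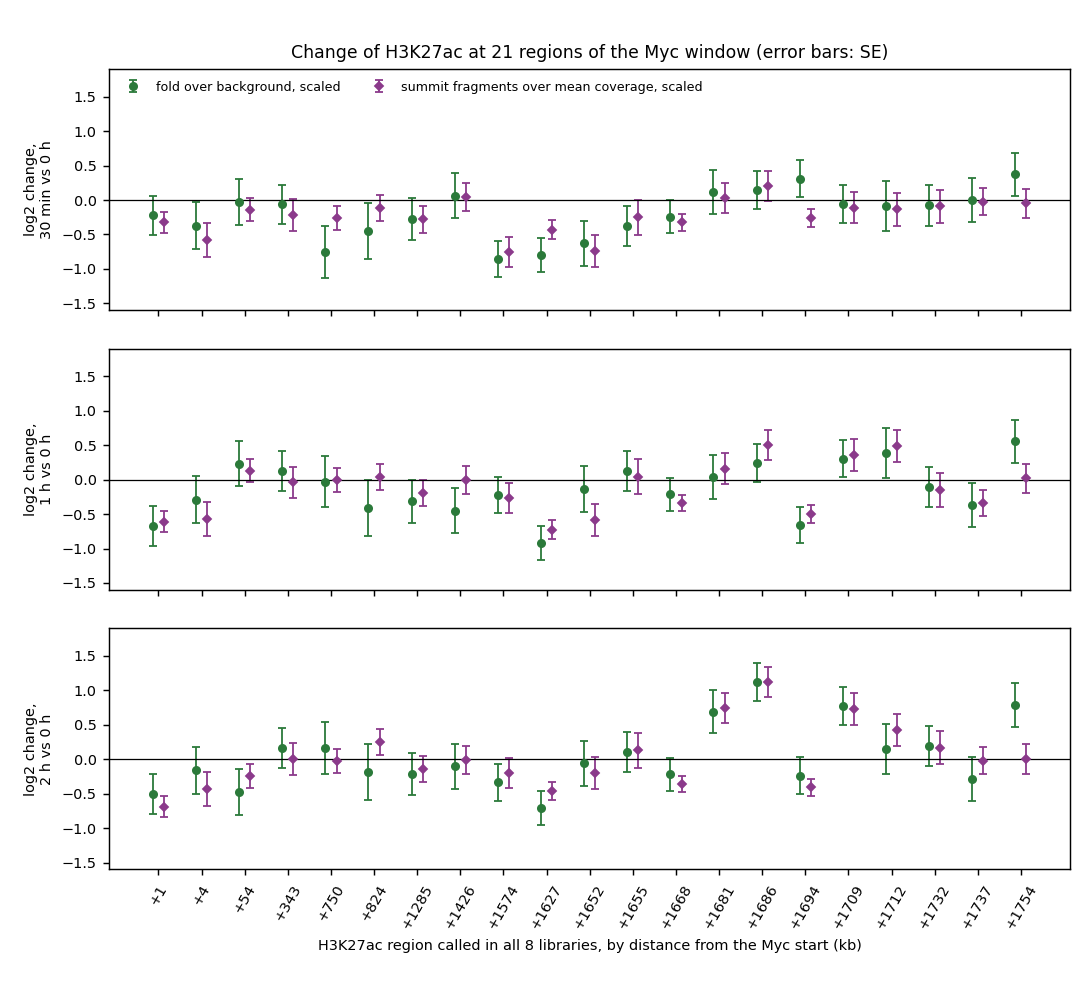
Change of H3K27ac at the 21 regions of the Myc window called in all 8 libraries. The x axis lists regions by distance from the Myc start in kb, the y axis is the scaled log2 change against 0 h at each time, circles are the fold over background, diamonds the summit fragments over mean coverage, and bars are standard errors. At 2 h the Myc start and the regions at 1627, 1668 and 1694 kb lie below 0 and those at 1681, 1686 and 1709 kb above 0 on both measures.

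The far downstream peaks formed one of the acetylated domains with the most called bases in these cells. Peaks within 12.5 kb of each other were joined, and the domain that held the region 1668 kb downstream was 102 to 158.5 kb long, with 55.7 to 105 kb of it under called peaks. By called bases it was 1st of 13130 and 12567 domains in the 2 libraries at 0 h and 2nd in both at 30 min. At 1 h it was 2nd and 5th, and at 2 h 4th in both. By length it was 6th and 1st at 0 h and 4th and 7th at 30 min. At 1 h it was 2nd and 7th by length, and at 2 h 12th and 6th. Its mean fold over called bases was 22.9 and 19.01 at 0 h, 14.6 and 15.2 at 30 min, 13.2 and 11.8 at 1 h, and 9.98 and 11.1 at 2 h. By fold times bases the domain was 3rd in both libraries at 0 h. It was 18th and 7th at 30 min, so that the replicates at that time lay far apart. It was 14th and 9th at 1 h, and 17th and 19th at 2 h. The number of domains ranged from 12005 to 13528 by library, so these places come from lists of unlike length. All 6 later libraries lay below both at 0 h in mean fold, as a value with no test, and the domain's ends differed between libraries. These folds are unscaled, and how many other domains lay below in this way was not counted. Over the 14716 H3K27ac regions called in every library the median log2 fold was also lower at 2 h. It was 3.65 and 3.40 at 0 h and 3.79 and 3.33 at 30 min. At 1 h it was 3.47 and 2.99, and at 2 h 3.09 and 3.04.

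The widths of the H3K27ac regions were compared apart from their heights. None of the 21 passed in bases called at 2 h, where 5.21% of all regions passed, and the lowest adjusted p was 0.159 (limma), at the region 1681 kb downstream. That region passed with the replicate block, and the region 1627 kb downstream passed without replicate 1 at 2 h. None passed at 30 min or 1 h either, where 0.068% and 0.747% of all regions did. Fewer bases were called than at 0 h, by the fitted change, at 14 of the 21 at 30 min, against 20.2% of all regions, at 18 at 1 h, against 51.9%, and at 13 at 2 h, against 41.6%. At 1 h the region 1652 kb downstream was at a log2 change of -1.40 in bases called (SE 0.265, limma, adjusted p = 0.0558), which missed the threshold. Over the whole window the H3K27ac lists covered 77.7 to 124 kb, and the lowest and the highest of these were replicate 2 at 1 h and replicate 1 at 2 h.

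Ikaros at the Myc start, chr15:61984694-61987281, was called before 4-OHT was added. Its folds were 7.33 and 9.09 at 0 h, 7.06 and 6.37 at 30 min, 4.58 and 6.00 at 1 h, and 5.97 and 8.32 at 2 h. Both libraries at 30 min and at 1 h lay below both at 0 h, and those at 2 h overlapped them. The scaled log2 change was -0.73 at 1 h (SE 0.34, limma, adjusted p = 0.191) and -0.13 at 2 h (SE 0.34, limma, adjusted p = 0.875). The order by time rests on how peaks were merged. The highest Ikaros peak within 1 kb of the start, which can lie in the region described next, had folds of 7.83 and 6.37 at 30 min. At 1 h these were 7.67 and 6.00, so both times overlapped 0 h.

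A second Ikaros region beside that at the Myc start, 1.6 kb upstream at chr15:61983113-61984540 and 153 bp from the first, was not called at 0 h. Its folds were 7.83 and 3.43 at 30 min, 7.67 and 2.75 at 1 h and 4.95 and 5.09 at 2 h, from summits of 10 to 27 fragments. In every later library it was called, and replicate 1 lay above replicate 2 at 30 min and 1 h. Another, 2.4 kb downstream with its midpoint in a coding exon of Myc, was called in 4 libraries, none of them at 0 h, at folds of 3.47 to 4.80.

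Between Myc and the far domain, peaks recurred at a few places. At the start of Pvt1, the H3K27ac folds were 15.0 and 13.1 at 0 h, 15.4 and 12.8 at 30 min, 15.1 and 11.9 at 1 h, and 11.1 and 4.81 at 2 h. Both libraries at 2 h lay below both at 0 h, but they differed from each other by more than the means of the other times did, and the scaled log2 change was -0.48 (SE 0.33, limma, adjusted p = 0.514). Ikaros was called there in 7 libraries, all but replicate 2 at 30 min, at folds of 3.98 to 5.65, with the midpoint of its region in an exon of Pvt1. CHD4 was called in 1 library at each of 2 regions there. The H3K27ac region 750 kb downstream, in an intron of the non-coding gene Gm41333, had folds of 5.73 to 16.6 and that 1285 kb downstream, beneath the Ikaros site described next, had folds of 7.67 to 15.9.

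The highest Ikaros peak of the window lay 1285.5 kb downstream, at chr15:63270224-63271637, in 5 of the 8 libraries. Folds were 12.3 and 18.2 at 0 h, none and 5.37 at 30 min, 10.2 and 12.1 at 1 h, and 6.40 and 4.80 at 2 h. The peak was 86th of 9527 in replicate 2 at 0 h and 147th of 14874 in replicate 2 at 1 h. Both libraries at 2 h lay below both at 0 h, but the region could not be fitted because replicate 1 at 30 min had no peak there.

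Of the 16 Ikaros regions of the window 4 (25%) were called in all 8 libraries, against 9.66% of all Ikaros regions, and 3 of the 4 lay in the far downstream domain. The region 1635 kb downstream had folds of 7.97 and 8.999 at 0 h, 3.39 and 4.69 at 30 min, 4.49 and 5.95 at 1 h, and 4.00 and 5.49 at 2 h. All 6 later libraries lay below both at 0 h, with scaled log2 changes of -0.93 (SE 0.35, limma, adjusted p = 0.139), -0.80 (SE 0.35, limma, adjusted p = 0.153) and -0.77 (SE 0.35, limma, adjusted p = 0.197). None of these passed, and in fragments over coverage the libraries at 30 min, at 1 h and at 2 h overlapped those at 0 h.

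The region 1663 kb downstream, chr15:63647383-63649532, had folds of 4.98 and 13.3 at 0 h, 4.52 and 8.51 at 30 min, 6.82 and 6.22 at 1 h, and 6.00 and 6.37 at 2 h. Its replicates at 0 h differed by more than the means of any times. In fragments over coverage they were 11.4 and 34.2 at 0 h and 9.12 and 10.4 at 2 h, and the log2 change passed at 1 h (-1.12, limma, adjusted p = 0.0142) and at 2 h (-1.07, limma, adjusted p = 0.0205). The log2 change of the fold at 2 h, -0.31, was 0.27 without replicate 2 at 0 h and -0.90 without replicate 1 at 0 h. The region 1673 kb downstream held folds of 4.82 to 8.24 with no order by time, and its scaled log2 change at 2 h was 0.19 (SE 0.35, limma, adjusted p = 0.806).

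Across these 4 regions none passed in fold at any time, where 3.3% of the 2305 Ikaros regions did at 30 min, 6.59% at 1 h and 5.9% at 2 h. Both libraries lay below both at 0 h at 2 of the 4 at 30 min, 2 at 1 h and 1 at 2 h, where 32.4, 20.5 and 28.8% of all did. At an unadjusted p under 0.05 there were 1, 2 and 1, against 17, 22.8 and 20.3% of all 2305. In fragments over coverage 1 of 4 passed at 1 h, where 20.7% of 2299 did, and 1 of 4 at 2 h, where 20% did.

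Ikaros peaks appeared at 3 regions that had none at 0 h, counting those called in both libraries at 2 h and in neither at 0 h. They were 3 of the 16 (18.8%), where 12% of all Ikaros regions met the rule, and none was lost, where 3.59% were. Besides the region 1.6 kb upstream they were those 1426 and 1632 kb downstream. The first, chr15:63410968-63411980, had folds of 5.93 and 5.03 at 30 min, 3.497 and 4.95 at 1 h and 3.90 and 4.48 at 2 h. The second, chr15:63616661-63617661, had 4.15 and none at 30 min, 3.59 and 3.88 at 1 h and 4.24 and 3.95 at 2 h. The regions 1.6 kb upstream and 1426 kb downstream were called in all 6 later libraries, a pattern held by 312 of all Ikaros regions (1.31%). When lists were cut to equal size, the highest 5373 peaks of each, no region of the window was gained. With peaks within 1 kb stitched, a choice made after seeing the data, 2 regions were gained, since that 1.6 kb upstream lies 153 bp from one called at 0 h. Without replicate 1 at 2 h the count was 6. The rule then asks for 1 library at 2 h, and the share of all regions under it is not given here. The lists at 2 h were longer than those at 0 h, and the part of list length in these gains was not tested beyond that.

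**Figure D4:**
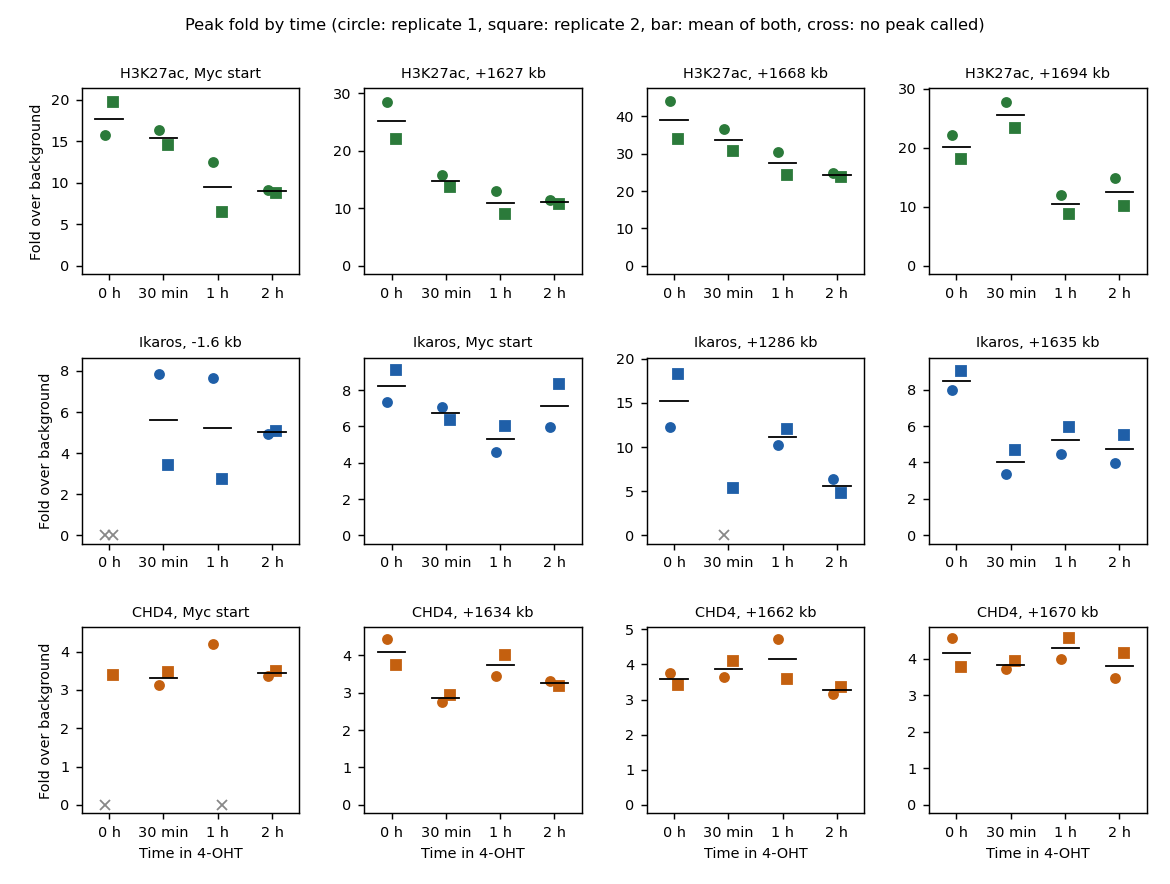
Fold over background by time at 12 regions of the Myc window, 4 for each target. The x axis is the time in 4-OHT, circles are replicate 1, squares replicate 2, bars the mean of both and crosses mark libraries with no called peak. H3K27ac at the Myc start and at 1627 and 1668 kb lies lower at 2 h than at 0 h, the Ikaros region at -1.6 kb is called only after 0 h, and the CHD4 folds stay between 2.76 and 4.73.

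CHD4 was called as broad peaks, for which the peak caller averages the fold over the peak, so its folds are not set against the summit folds of the other targets. At the Myc start, chr15:61984204-61985865, the fold was 3.39 in replicate 2 at 0 h, 3.13 and 3.48 at 30 min, 4.20 in replicate 1 at 1 h, and 3.37 and 3.4996 at 2 h, with no peak in the other library at 0 h and at 1 h. A CHD4 region 6.7 kb downstream was called in replicate 1 at 1 h only, at a fold of 3.57. Of the 26 regions 16 (61.5%) were called in 1 library only, against 49.6% of all CHD4 regions, and 3 (11.5%) in all 8, against 4.71% of all. Those 3 lay 1634, 1662 and 1670 kb downstream, in the same domain as the recurrent Ikaros regions.

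The region 1634 kb downstream, chr15:63616339-63621454, had CHD4 folds of 4.43 and 3.75 at 0 h, 2.76 and 2.93 at 30 min, 3.45 and 4.02 at 1 h, and 3.32 and 3.18 at 2 h. Both libraries at 30 min and both at 2 h lay below both at 0 h, with scaled log2 changes of -0.47 (SE 0.13, limma, adjusted p = 0.35) and -0.22 (SE 0.13, limma, adjusted p = 0.78). Of all 723 CHD4 regions 24.6% lay below in this way at 30 min and 38.2% at 2 h. The region 1662 kb downstream held folds of 3.15 to 4.73, with 3.74 and 3.42 at 0 h above 3.15 and 3.36 at 2 h, and that 1670 kb downstream 3.47 to 4.57. Their scaled log2 changes at 2 h were -0.03 (SE 0.13) and -0.02 (SE 0.15). None of the 3 passed at any time, where 0.138% of 723 CHD4 regions did at 30 min, 0.415% at 1 h and 0.553% at 2 h, and 1, 0 and 0 had an unadjusted p under 0.05, against 6.36, 6.09 and 7.33% of all 723. None of the 26 was gained by 2 h, where 5.3% of CHD4 regions were, and none was lost, where 1.45% were. These counts moved with single libraries, to 5 gained without replicate 1 at 2 h, 4 gained without replicate 2 at 2 h and 5 lost without replicate 1 at 0 h. Leaving out a library loosens the rule for all CHD4 regions, and the shares under it are not given here.

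Ikaros and CHD4 regions, each merged over 8 lists, overlapped at most of these places. Of the 16 Ikaros regions 13 (81.2%) overlapped a CHD4 region by 1 base or more, where 54.6% of all Ikaros regions did. CHD4 peaks overlapped in only 1 library at 1.6 kb upstream and 750 kb downstream, and in 2 at Pvt1 and 1426 kb. The Ikaros regions at the Myc start and 1.6 kb upstream shared 1 CHD4 region. So did those at 1632 and 1635 kb, and those at 1661 and 1663 kb. All 16 Ikaros regions overlapped an H3K27ac region, where 87.4% did, and each of those H3K27ac regions had a peak in all 8 libraries. With the peaks of both targets held to a q-value of 0.001 or less, that is a -log10 q of at least 3, 8 of 16 overlapped, where 15.7% of the 19976 Ikaros regions left did. At 1635, 1663 and 1673 kb an Ikaros peak and a CHD4 peak were called in every library of each target, before and after 4-OHT. At 1285.5 kb CHD4 was called in 5 libraries, 2 of them at 0 h, at folds of 3.08 to 3.66.

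H3K27ac peaks appeared at 7 of 72 regions by 2 h (9.72%), where 3.73% of all H3K27ac regions were gained, and none was lost, where 2.78% were. One lay 1328 kb downstream and 6 between 1603 and 1718 kb, all of them low, with folds of 2.62 to 4.55 at 2 h. The latter 6 sat beside or between the taller regions of the domain, and only 3 regions were gained when peaks within 1 kb were stitched or when lists were held to the highest 21468 peaks. Without replicate 2 at 2 h, the count rose to 26. That rule asks for 1 library at 2 h, and the share of all regions under it is not given here.

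The number of peaks in the window was compared over time. Ikaros lists held 8 and 9 peaks there at 0 h, 12 and 9 at 30 min, 14 and 15 at 1 h, and 11 and 16 at 2 h. Spearman's rho with time was 0.761 over 8 libraries (exact permutation test, p = 0.0397, adjusted over 6 trends p = 0.238) and Pearson's r 0.675 (exact permutation test, p = 0.0817, adjusted p = 0.206), and r was 0.917 without the 2 libraries at 2 h. As a percent of the list, 0.0773 to 0.168%, rho was -0.098 (exact permutation test, p = 0.861, adjusted p = 0.861) and r -0.289 (exact permutation test, p = 0.506, adjusted p = 0.542), or 0.136 without the 2 h libraries. CHD4 lists held 5 to 14 peaks in the window, with a rho of 0.42 (exact permutation test, p = 0.306, adjusted p = 0.368) and an r of 0.285 (exact permutation test, p = 0.542, adjusted p = 0.542), which was -0.532 without 2 h. H3K27ac lists held 42 to 77, with a rho of 0.593 (exact permutation test, p = 0.142, adjusted p = 0.306) and an r of 0.626 (exact permutation test, p = 0.103, adjusted p = 0.206), which was 0.3 without 2 h. As a percent of the list, rho was -0.488 for CHD4 (exact permutation test, p = 0.247, adjusted p = 0.368) and 0.586 for H3K27ac (exact permutation test, p = 0.153, adjusted p = 0.306). None of the 6 trends passed after adjustment. With lists of equal size the H3K27ac counts were 35 and 42 at 0 h and 47 and 46 at 2 h (rho 0.908, exact permutation test, adjusted p = 0.0143), and the direction turned for Ikaros (rho -0.55, exact permutation test, adjusted p = 0.188) and for CHD4 (rho -0.617, exact permutation test, adjusted p = 0.168).

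The partners and antagonists of MYC were looked at in the same way, at 18 genes of its network. MAX is its dimer partner, MXD1, MXI1, MXD3, MXD4, MNT and MGA compete for MAX, MLX and MLXIP form a parallel pair, and TRRAP, KAT5, EP400, RUVBL1 and RUVBL2 belong to acetyltransferase and remodelling complexes that MYC recruits. H3K27ac peaks lay within 1 kb of the start of 15 of the 18, in all 8 libraries for 14, where 47.2% of the 21924 protein-coding genes had such a peak in any library and 41.9% in all 8. The relatives Mycn and Mycl and the gene Mlxipl had none. Ikaros peaks lay at 10 of the 18, against 38.2% of protein-coding genes, and CHD4 peaks at 5, against 24.4%.

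At the start of Mnt, Ikaros was called in all 8 libraries, with best folds of 6.03 and 5.72 at 0 h, 8.68 and 5.37 at 30 min, 10.2 and 9.28 at 1 h, and 5.48 and 8.52 at 2 h. Only the libraries at 1 h both lay above both at 0 h, where 29.2% of all 2305 fitted Ikaros regions did so. The 2 fitted regions at Mnt had scaled log2 changes of 0.95 and 0.99 then, neither past the threshold. At Mxd1 Ikaros was called in neither library at 0 h or 30 min. Its folds there were 6.53 and 6.25 at 1 h and 3.26 and 3.46 at 2 h. The Ikaros lists at 1 h and 2 h held 12447 to 14874 peaks, against 5373 to 9527 at 0 h and 30 min. Of all Ikaros regions 12% were called in both libraries at 2 h and in neither at 0 h. At Max Ikaros was called in 7 libraries. Folds there were 7.97 and 7.15 at 0 h and 4.58 and none at 30 min. They were 5.97 and 3.76 at 1 h and 5.64 and 4.32 at 2 h. None of the 16 H3K27ac or 3 Ikaros regions that could be fitted at these genes passed at any time, where 0.0068, 0.231 and 0.408% of all H3K27ac regions and 3.3, 6.59 and 5.9% of all Ikaros regions did at 30 min, 1 h and 2 h. At 2 h the scaled log2 change was below 0 at 4 of those 16, against 44.8% of all H3K27ac regions, and its median was 0.23, against 0.05 over all regions and -0.51 at the Myc start.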

How the data were processed

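Peak lists for HA-Ikaros, CHD4 and H3K27ac in B3 cells, 24 of the 32 samples, were used. The 8 inputs had no list. Per the study's methods, the authors aligned reads to mm10 with Bowtie2 2.4.2, used Picard 2.23.7 and deepTools 3.5.0, and called peaks per library with MACS2 2.2.7.1 (broad peaks for CHD4). The deposited lists are named as called with input, and which input is not given in the sources used here. Settings for 30 min are not given in the sources used here. The deposited columns hold a fold over background (a ratio), −log10 p and −log10 q values, and a display score, which was not used.

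Peaks of a target that overlapped by at least 1 bp were merged into regions over its 8 lists. Log2 folds of the highest peak per library, at regions called in all 8 libraries, were set to equal library medians and fitted with limma 3.58.1 (R 4.3.3) on all 4 times without a replicate block. P-values were adjusted by Benjamini-Hochberg over all regions of a target, at a threshold of 0.05. With 2 libraries a group, an exact permutation test cannot go below p = 0.333. Summit fragments and mean coverage were recovered from the fold and the −log10 p of narrow peaks. The method was tested on simulated data. Regions were named where they lay within 10 kb of the Myc start, passed a test, were gained or lost, or ranked highest among those called in every library. The Ikaros and CHD4 regions 1285.5 kb downstream and at Pvt1, the H3K27ac regions 750, 1285, 1652, 1655 and 1737 kb downstream and the examples of the network list were picked after their values were seen. The window, lists and rules were chosen with earlier results of these data known.

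Alternatives were no scaling, percentile ranks, fragments, stricter or equally long lists, stitching, 2 times only, 50% overlap, the block, and each library left out. Stitching for gained and lost regions was added after seeing the data. Genes were from GENCODE M21. Sequences are given for 6 of the 16 Ikaros regions, and the rest and the RefSeq promoter of Myc are not reported here.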

Additional observations from a re-analysis of the deposited data

How the results depend on the processing

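No region of the window passed in the fit of the deposited fold for any target or time, nor without scaling, by percentile rank, with stricter peaks, with stitching, with the 2 times only or with any 1 library left out. With stricter peaks no CHD4 region of the window was left to test, and with stitching 2 were. Summit fragments over coverage gave 1 Ikaros region at 1 h and 1 at 2 h, and 1, 4 and 7 H3K27ac regions at 30 min, 1 h and 2 h. These fragments also carried H3K27ac calls over the whole genome from 60 to 3457 at 2 h, from 34 to 2812 at 1 h and from 1 to 894 at 30 min, while the calls at 1 h and 2 h fell to 0 with the 2 times only. Ikaros calls over the genome ran from 0 by percentile rank to 475 at 1 h and 460 at 2 h by fragments. The cause was not tested. Same-numbered replicates correlated at 0.014 to 0.176, and with 2 of them a number does not show pairing. With the replicate block, level gave 0 calls in the window and width at 2 h gave 1. Leaving out each library in turn gave 0 to 1 for width. Over the genome width calls ran from 11 without replicate 2 at 0 h to 1240 with the block, against 767.

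Stitching within 1 kb turned the regions 1681, 1686 and 1709 kb downstream to -0.21, since they then share a taller neighbour. Leaving out replicate 2 at 2 h took the H3K27ac region 1694 kb downstream from -0.24 to 0.017 (-0.49 to 0.017 over the libraries left out), and leaving out replicate 2 at 0 h took Ikaros at 1663 kb from -0.31 to 0.27 (-0.90 to 0.27 over them). Ranges over the libraries left out were 3 to 6 Ikaros regions gained and 0 to 1 lost, 0 to 5 CHD4 regions gained and 0 to 5 lost, and 7 to 26 H3K27ac regions gained and 0 to 5 lost. The extremes were reached without replicate 1 at 2 h for Ikaros and CHD4 gains, replicate 2 at 2 h for H3K27ac gains, replicate 1 at 0 h for CHD4 losses and replicate 2 at 0 h for H3K27ac losses. Lists of equal size gave 0 Ikaros regions gained, 1 CHD4 gained and 2 lost, and 3 H3K27ac gained. A -log10 q of at least 3 gave 1 CHD4 region lost and 8 of 16 Ikaros regions with CHD4. Stitching gave 3 H3K27ac regions gained. The shares of gained and lost regions over the genome under these settings are not given here.

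For the count of peaks over time, rho became -0.55 for Ikaros (adjusted p = 0.188) and -0.617 for CHD4 (adjusted p = 0.168) with lists of equal size, and 0.908 for the H3K27ac number and percent (adjusted p = 0.0143), all by exact permutation test. For CHD4 it became -0.478 with the stricter q (exact permutation test, adjusted p = 0.291). With a library left out, the Ikaros number gave 0.658 to 0.945, passing only without replicate 1 at 2 h (exact permutation test, adjusted p = 0.0286), and the Ikaros percent gave -0.385 to 0.275. CHD4 depth was not recovered. Peak lists hold no value for a library without a call, so an uncalled region is not shown to be empty.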
